A study of Arabidopsis thaliana with 8 samples.

Results

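The loci ath-MIR393a, ath-MIR393b, ath-MIR394a and ath-MIR394b, called here without their prefix, are the precursors of miR393 and miR394, microRNAs that both act on mRNAs of F-box proteins. They were chosen by name, and make up 4 of the miRNA precursors, of which 255 had a count and 70 had none, among the 20347 small RNA loci listed for phloem exudates of wild-type Arabidopsis thaliana Col-0. The −Fe group held 4 libraries from plants moved to medium without added iron for 3 days. The +Fe group held 4 libraries from plants moved to fresh iron-containing medium for the same 3 days. Transfer was on day 11, and all seedlings had earlier spent 3 days in the dark. Each library came from sap that bled into water from the cut hypocotyls of many pooled rosettes after a rinse in EDTA, so it is an exudate of whole shoots rather than of single veins. The table counts small RNA loci and holds no marker transcripts of phloem cells, so the label phloem sap could not be set against marker mRNAs.

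An F-box protein is the part of an SCF ubiquitin ligase that recognises the protein to be degraded. miR393 cuts the mRNAs of TIR1 and its relatives AFB1, AFB2 and AFB3, the F-box receptors that bind auxin and mark Aux/IAA repressors for degradation, and the cut mRNAs can give rise to secondary small RNAs. It is known in Arabidopsis for tuning auxin responses in roots and leaves, and for lowering auxin signaling during antibacterial defence. miR394 acts on the mRNA of LCR (LEAF CURLING RESPONSIVENESS), an F-box protein of leaf shape and of the shoot meristem, where miR394 made in the outer cell layer moves inward to the stem cells. The mature miRNAs of MIR393a and MIR393b share their main strand, as do those of MIR394a and MIR394b, so a read may match both precursors of a family and the sum of a family is firmer than the division between its members.

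Total counts ranged from 10589005 to 13163733 in −Fe and from 10347644 to 14116739 in +Fe libraries. Levels are given as CPM, the count of a locus per 1e+06 counts of its library. These totals sum all listed loci, some of which overlap, so part of the counts enters more than once. The rRNA loci of chromosomes 2 and 3 held between 38.0% (+Fe replicate 3) and 49.7% (−Fe replicate 1) of a total. Where a library had no count at a locus, its level may still have been as high as 3 counts, which is 0.213 to 0.290 CPM, counting error only. The libraries of +Fe replicates 2 and 4 had counts at fewer loci (12117 and 11269) than the other 6, which had counts at 14214 to 16201 loci. These 2 libraries also had the lowest totals, 10347644 and 10451077, though −Fe replicate 1, with 10589005, had counts at 14214 loci. In them miRNA precursors held the largest share of counts, 1.97% and 2.22%, against 1.34% to 1.75% in the other 6. What lies behind the fewer loci was not tested.

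MIR393a (AT2G39885) lies on chromosome 2 from 16652100 to 16652232 and MIR393b (AT3G55734) on chromosome 3 from 20691646 to 20691805. MIR394a (AT1G20375) lies on chromosome 1 from 7058193 to 7058309, and MIR394b (AT1G76135) on the same chromosome from 28568807 to 28568927. All 4 are annotated as miRNA genes. These are the positions of the authors' table, for which the labels name the TAIR10 build, and each of the 4 starts 1 nt below its entry in the TAIR10.1 gene table. Each precursor sits inside a longer, unnamed small RNA locus of the same table, of 226 nt around MIR393a, 432 nt around MIR393b, 163 nt around MIR394a and 550 nt around MIR394b. In all 8 libraries the enclosing locus had exactly the count of its precursor, at each of the 4 members. No count was therefore added by the flanks outside the annotated precursor, and the table lists the counts of each member more than once.

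MIR393b, the best counted of the 4, had 114, 60.6, 61.2 and 72.0 CPM in −Fe replicates 1 to 4, against 89.1, 56.1, 66.0 and 114 CPM in +Fe replicates 1 to 4. MIR393a had 24.6, 15.4, 13.7 and 17.8 CPM in −Fe, against 19.98, 20.4, 16.2 and 30.0 CPM in +Fe replicates 1 to 4. For both MIR393 precursors the groups overlapped widely, with −Fe replicate 1 and +Fe replicate 4 as the highest library of their group. MIR394a had 13.98, 6.94, 6.15 and 6.08 CPM in −Fe, against 9.14, 3.58, 7.37 and 2.20 CPM in +Fe replicates 1 to 4. MIR394b, the least counted, had 61, 19, 31 and 30 counts (5.76, 1.499, 2.61 and 2.28 CPM) in −Fe, against 31, 12, 26 and 0 counts (2.20, 1.16, 1.94 and 0 CPM) in +Fe replicates 1 to 4. The MIR394 groups also overlapped. Their highest library was again −Fe replicate 1, but their lowest was +Fe replicate 4, and next came +Fe replicate 2 for both. By CPM +Fe replicate 4 was the +Fe library highest in MIR393, but precursors as a whole also held their largest share there, 2.22%. Of all precursor counts, the 4 members together held 0.659% in +Fe replicate 4 and 0.765% in +Fe replicate 1.

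**Figure D1:**
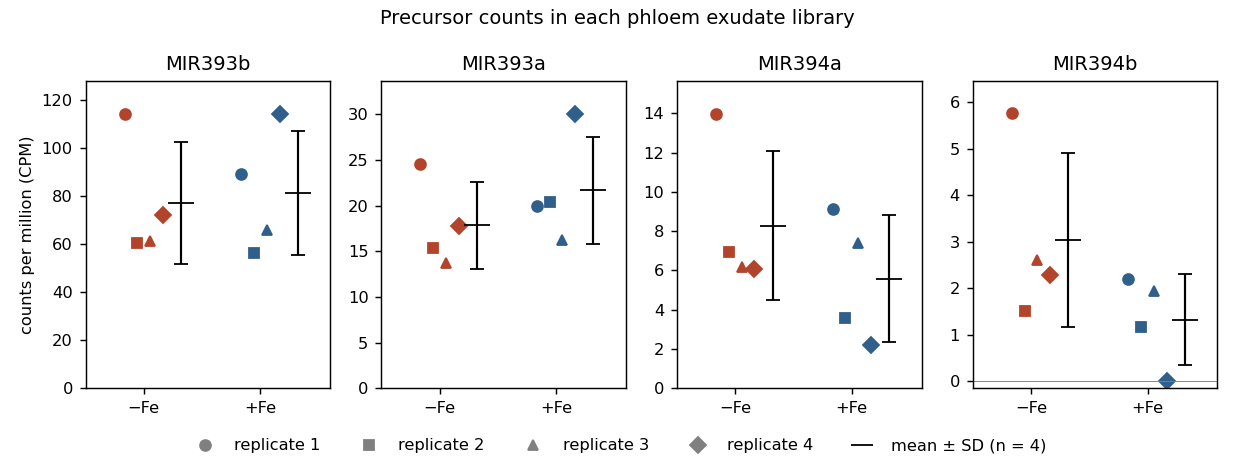
CPM (linear axes that differ between panels) of MIR393b, MIR393a, MIR394a and MIR394b in each −Fe and +Fe phloem exudate library. Marker shapes give the replicate number and black bars the mean ± SD of 4 libraries. −Fe replicate 1 was the highest −Fe library in each panel, and +Fe replicate 4 was the highest +Fe library for MIR393b (114 CPM) and the lowest for MIR394b (0 CPM).

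Over the 8 libraries MIR393b had 7565 counts, MIR393a 1876, MIR394a 677 and MIR394b 210, together 10328 counts. Per 100 nt of precursor the level was 49.5 ± 14.8 CPM for MIR393b, 14.9 ± 4.04 for MIR393a, 5.92 ± 3.06 for MIR394a and 1.80 ± 1.37 for MIR394b (SD, n = 8). This order was the same in 8 of 8 libraries. Within a library, MIR393b lay above MIR393a by 34.6 ± 11.6, MIR393a above MIR394a by 8.93 ± 5.27 and MIR394a above MIR394b by 4.12 ± 1.87 CPM per 100 nt (mean ± SD, n = 8). Across different libraries the levels of MIR393b did not overlap those of MIR393a, while MIR393a reached down to 10.3 CPM per 100 nt and MIR394a up to 11.9. MIR394a and MIR394b overlapped more widely, since MIR394a reached down to 1.88 and MIR394b up to 4.76 CPM per 100 nt.

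Among the precursors, ordered by summed counts, MIR393b was number 23, MIR393a number 46, MIR394a number 80 and MIR394b number 134. The precursors just above MIR393b were MIR408 (7945 counts), MIR5642b (8282) and MIR159c (8936), and those just below were MIR8176 (7102), MIR5026 (6935) and MIR822 (6324). MIR408 gives a copper-responsive miRNA. Around MIR394a stood MIR170 (690 counts), MIR405b (692) and MIR5014b (696) above, and MIR848 (674), MIR843 (656) and MIR839 (618) below. The coefficients of variation over the 8 libraries were 27.2% for MIR393a and 30.0% for MIR393b, numbers 28 and 35 from the lowest, against a median of 33.9% over the 105 precursors with at least 10 counts in every library. That of MIR394a was 51.6%, which was number 89 of 105 from the lowest. MIR394b, with no count in 1 library, was outside that set, and its coefficient of variation was 76.2%.

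**Figure D2:**
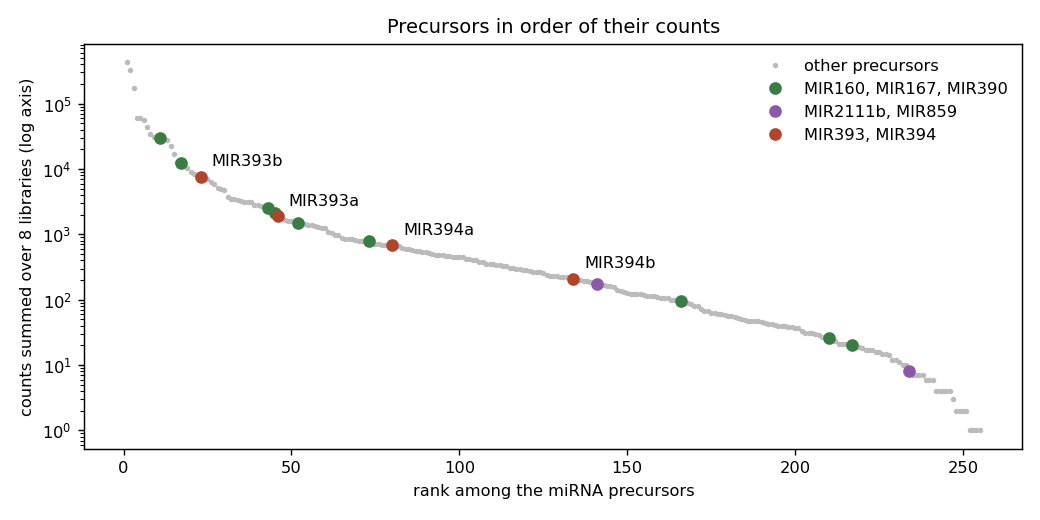
Counts summed over the 8 libraries (log axis) against rank for the 255 miRNA precursors with a count. MIR393b, MIR393a, MIR394a and MIR394b (red) stood at ranks 23, 46, 80 and 134, other auxin pathway precursors are green and precursors of other F-box-targeting miRNAs purple.

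The division of counts within a family does not depend on the scaling of libraries. MIR393b held 82.3%, 79.8%, 81.8% and 80.2% of the MIR393 counts in −Fe replicates 1 to 4, against 81.7%, 73.4%, 80.3% and 79.1% in +Fe replicates 1 to 4. All libraries but +Fe replicate 2 lay close together. In that library the exact 95% binomial interval (Clopper-Pearson, counting error only) was 70.1% to 76.4% of 792 counts, below the interval of every other library, of which +Fe replicate 4 reached lowest with 77.0% to 81.2%. The mean share was 81.0% ± 1.22 in −Fe and 78.6% ± 3.65 in +Fe (SD, n = 4 each). This difference of 2.39 percentage points did not pass an exact permutation test (two-sided, p = 0.229). It was larger than the SD in −Fe and smaller than the SD in +Fe. The difference was 0.645 percentage points without +Fe replicate 2 and 0.0289 without +Fe replicates 2 and 4.

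For MIR394, the share of MIR394b was 29.2%, 17.8%, 29.8% and 27.3% in −Fe replicates 1 to 4, against 19.4%, 24.5%, 20.8% and 0% in +Fe replicates 1 to 4. The families were thus divided in opposite ways, with the b precursor as the larger part of MIR393 and the a precursor as the larger part of MIR394 in all 8 libraries. The 0% of +Fe replicate 4 stands for 0 of 23 counts, which allows a share of up to 13.0%, and its exact 95% binomial interval, 0% to 14.8%, overlapped those of −Fe replicate 2 and of the other 3 +Fe libraries. The mean MIR394b share was 26.0% ± 5.60 in −Fe and 16.2% ± 11.0 in +Fe (SD, n = 4 each), which did not pass the exact two-sided permutation test (p = 0.143). The difference of 9.84 percentage points became 4.45 without +Fe replicate 4 and 5.92 without +Fe replicates 2 and 4.

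MIR393 had 7.02, 9, 8.54 and 10.7 times the counts of MIR394 in −Fe replicates 1 to 4, against 9.62, 16.2, 8.83 and 65.4 times in +Fe replicates 1 to 4. The −Fe libraries stayed within a narrow range, while +Fe replicates 2 and 4 lay above all others. On the log2 scale (counts + 1) the ratio was 3.12 ± 0.25 in −Fe and 4.09 ± 1.31 in +Fe (SD, n = 4 each). The difference of -0.97 compares the responses of the 2 families, and it did not pass the threshold (exact two-sided permutation test, p = 0.171). Without +Fe replicate 4 it was -0.34, and without +Fe replicates 2 and 4, the libraries with counts at the fewest loci, it was -0.081. The part that the number of detected loci plays in this was not tested.

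**Figure D3:**
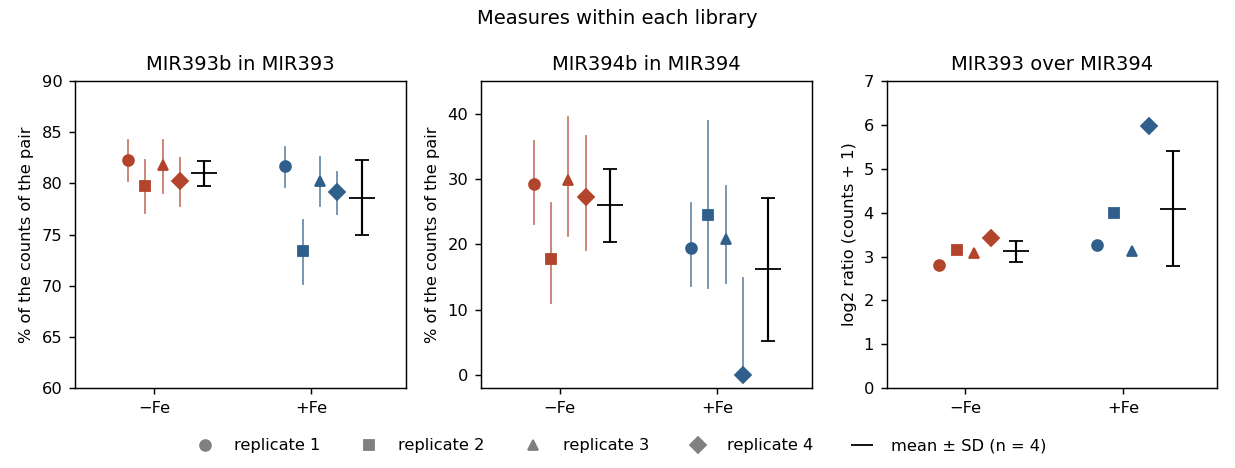
Share of MIR393b in the MIR393 counts (left, axis from 60% to 90%), share of MIR394b in the MIR394 counts (middle) and log2 ratio of MIR393 to MIR394 counts (right) in each −Fe and +Fe library. Coloured lines are exact 95% binomial intervals and black bars the mean ± SD of 4 libraries. +Fe replicate 2 stands below the other libraries at 73.4% on the left, and +Fe replicate 4 is lowest in the middle at 0%, with an interval that overlaps those of 4 other libraries, and highest on the right at 65.4-fold (log2 of 5.97).

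Whether iron deficiency changed the levels was asked with the quasi-likelihood test of edgeR, fitted to the counts of the 17722 loci that had at least 10. A locus was called when its Benjamini-Hochberg adjusted p was under 0.1 and its log2 fold change reached 0.5 in either direction. None of the 4 precursors was called, nor did any have an unadjusted p under 0.05. Without +Fe replicate 1 the unadjusted p of MIR394a was under 0.05, with a log2 fold change of 1.21 and an edgeR adjusted p of 0.556. Over all loci tested, edgeR called 0 (0%) and gave an unadjusted p under 0.05 to 1186 (6.69%), with 4.86% of loci higher and 1.83% lower in −Fe, while DESeq2 called 34 (0.192%), none of them a member. Among the 233 precursors tested, 14 (6.01%) had an unadjusted p under 0.05 by edgeR, with 12 higher (5.15%) and 2 lower (0.858%) in −Fe. The fitted log2 fold change was positive for 3 of the 4 members, against 53.4% of all loci and 54.5% of precursors, and their median was 0.44 beside 0.066 over all loci.

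MIR393a averaged 17.8 ± 4.78 CPM in −Fe and 21.7 ± 5.89 CPM in +Fe (SD, n = 4 each). By edgeR the log2 fold change of MIR393a was -0.041 ± 0.29 (SE), with an adjusted p of 0.998. MIR393b averaged 77.0 ± 25.3 CPM in −Fe and 81.3 ± 25.7 CPM in +Fe (SD, n = 4 each). By edgeR the log2 fold change of MIR393b was 0.15 ± 0.27 (SE), with an adjusted p of 0.998. The approximate 95% intervals of the fold ran from 0.641 to 1.47 for MIR393a and from 0.754 to 1.63 for MIR393b, and changes within those bounds could not be told from none. The sign for MIR393a turned when single libraries were left out (-0.23 to 0.12), as it did for MIR393b (-0.10 to 0.32). For MIR393b the sign also depended on the scaling. With library totals in place of TMM the log2 fold change was -0.079, and the median over all loci was -0.12 in place of 0.066. MIR393b thus lay above that median under both scalings with all 8 libraries, but not in every fit. It lay below the median with a replicate block (0.13 against 0.29). The same held without −Fe replicate 1 (-0.10 against 0.052), +Fe replicate 2 (-0.015 against 0.097) or +Fe replicate 3 (0.037 against 0.11).

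MIR394a averaged 8.29 ± 3.81 CPM in −Fe and 5.57 ± 3.23 CPM in +Fe (SD, n = 4 each). By edgeR the log2 fold change of MIR394a was 0.73 ± 0.52 (SE), with an adjusted p of 0.901. MIR394b averaged 3.04 ± 1.87 CPM in −Fe and 1.32 ± 0.986 CPM in +Fe (SD, n = 4 each). By edgeR the log2 fold change of MIR394b was 1.37 ± 1.08 (SE), with an adjusted p of 0.962. Both intervals were wide, from 0.792-fold to 3.46-fold for MIR394a and from 0.556-fold to 12.1-fold for MIR394b. The higher −Fe mean rested on few libraries. Without −Fe replicate 1 MIR394a averaged 6.39 ± 0.479 CPM in −Fe (SD, n = 3) and 5.57 ± 3.23 CPM in +Fe (SD, n = 4), and without +Fe replicates 2 and 4 it averaged 8.29 ± 3.81 CPM in −Fe (SD, n = 4) and 8.26 ± 1.25 CPM in +Fe (SD, n = 2). MIR394b without +Fe replicates 2 and 4 averaged 3.04 ± 1.87 CPM in −Fe (SD, n = 4) and 2.07 ± 0.183 CPM in +Fe (SD, n = 2), and without −Fe replicate 1 it averaged 2.13 ± 0.572 CPM in −Fe (SD, n = 3) and 1.32 ± 0.986 CPM in +Fe (SD, n = 4).

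For the CPM of single members, exact two-sided permutation tests gave their smallest p for MIR394b (p = 0.143), with a Benjamini-Hochberg adjusted p of 0.495 over the 4. As families, MIR393 had 94.8 ± 30.0 CPM in −Fe and 103 ± 30.8 CPM in +Fe (SD, n = 4 each; exact two-sided permutation test, p = 0.686), and MIR394 had 11.3 ± 5.61 CPM in −Fe and 6.90 ± 4.17 CPM in +Fe (SD, n = 4 each; p = 0.286 by the same exact test). The direction for MIR393 was not stable: its difference of -8.13 CPM became 7.68 with TMM-scaled libraries, 328 when taken per 1e+06 precursor counts, and 5.53 CPM without +Fe replicate 4. The 4 precursors together held 0.680% ± 0.186 of all miRNA precursor counts in −Fe and 0.618% ± 0.149 in +Fe (SD, n = 4 each; exact permutation p = 0.657). Over the 6 measures tested in this way, which include the shares and the ratio, the smallest Benjamini-Hochberg adjusted p was 0.429. With 4 libraries on each side, an exact permutation p cannot be smaller than 0.0286. For MIR394 the difference between groups moved by over 1.5 times when libraries were left out. The 4.43 CPM became 1.63 without −Fe replicate 1, 2.87 without +Fe replicate 4 and 1.00 without +Fe replicates 2 and 4.

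**Figure D4:**
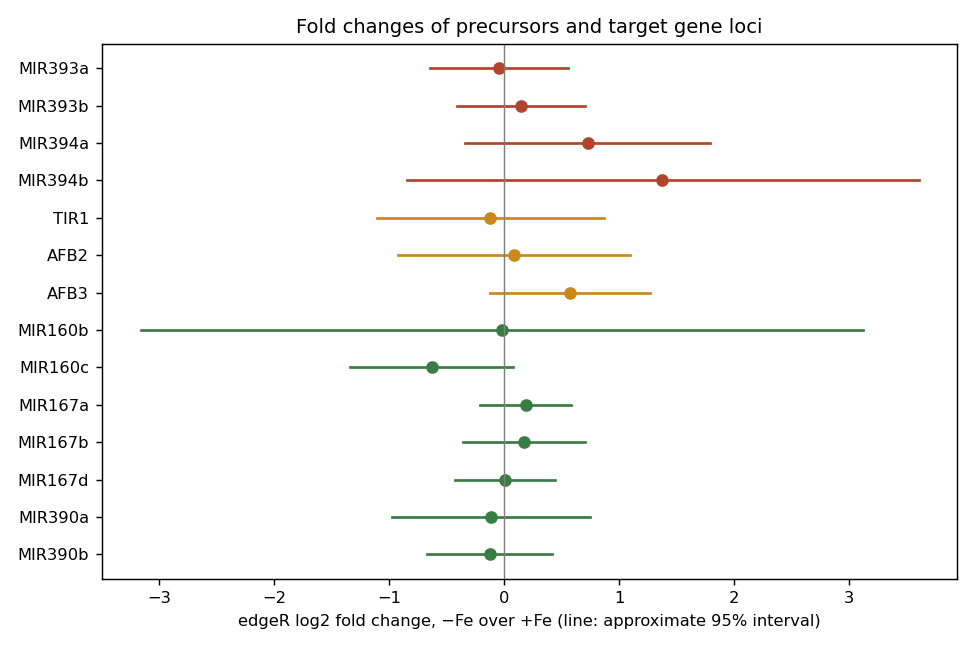
edgeR log2 fold changes, −Fe over +Fe, with approximate 95% intervals for the 4 precursors (red), the table's TIR1, AFB2 and AFB3 loci (orange) and precursors of the auxin pathway with a count in all 8 libraries (green). Each interval spans 0, and those of MIR394b (log2 of 1.37) and MIR160b (log2 of -0.02) are the widest.

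The deposited table also lists small RNA loci that carry the names of the auxin receptor genes. The target list held 8 genes, namely TIR1, AFB1 to AFB5, a bHLH gene and LCR. AFB4 and AFB5 are receptors but are not among the miR393 targets named above. Each of the 8 genes overlapped at least 1 locus, with 17 loci in all, several of which overlap each other and count the same reads. None of the 17 had an unadjusted p under 0.05 by edgeR, against 6.69% of all loci, and 10 had a positive log2 fold change (53.4% of all loci did), with a median of 0.053 beside 0.066 over all loci.

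AFB3, an auxin receptor, gave the densest small RNA locus of the 4 named ones, with 4.58 ± 0.978 CPM per kb over the 8 libraries (SD), against 2.27 ± 0.622 for AFB2, 2.11 ± 0.682 for TIR1 and 0.0771 ± 0.161 for AFB1. Its locus lies on chromosome 1 from 4368760 to 4371293. AFB3 had 113, 179, 174 and 174 counts in −Fe, against 187, 93, 114 and 99 counts in +Fe replicates 1 to 4. It averaged 13.2 ± 1.77 CPM in −Fe and 10.0 ± 2.17 CPM in +Fe (SD, n = 4 each). The edgeR log2 fold change of AFB3 was 0.57 ± 0.34 (SE), with an adjusted p of 0.735. The groups overlapped because −Fe replicate 1 was the lowest −Fe library and +Fe replicate 1 the highest +Fe library. TIR1 (chromosome 3, 23273116 to 23276375) gave 101, 51, 66 and 70 counts in −Fe, against 149, 66, 80 and 80 counts in +Fe replicates 1 to 4. Replicate 1 was the highest library of both groups, and the edgeR log2 fold change of TIR1 was -0.12 ± 0.48 (SE), with an adjusted p of 0.998. AFB2 (chromosome 3, 9867845 to 9870640) gave 62, 89, 79 and 66 counts in −Fe, against 104, 99, 73 and 40 counts in +Fe replicates 1 to 4. Its +Fe libraries spanned the −Fe ones, and its edgeR log2 fold change was 0.087 ± 0.49 (SE), with an adjusted p of 0.998. AFB1 (chromosome 4, 1404887 to 1407139) gave 18 counts in all, 14 of them in +Fe replicate 3.

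**Figure D5:**
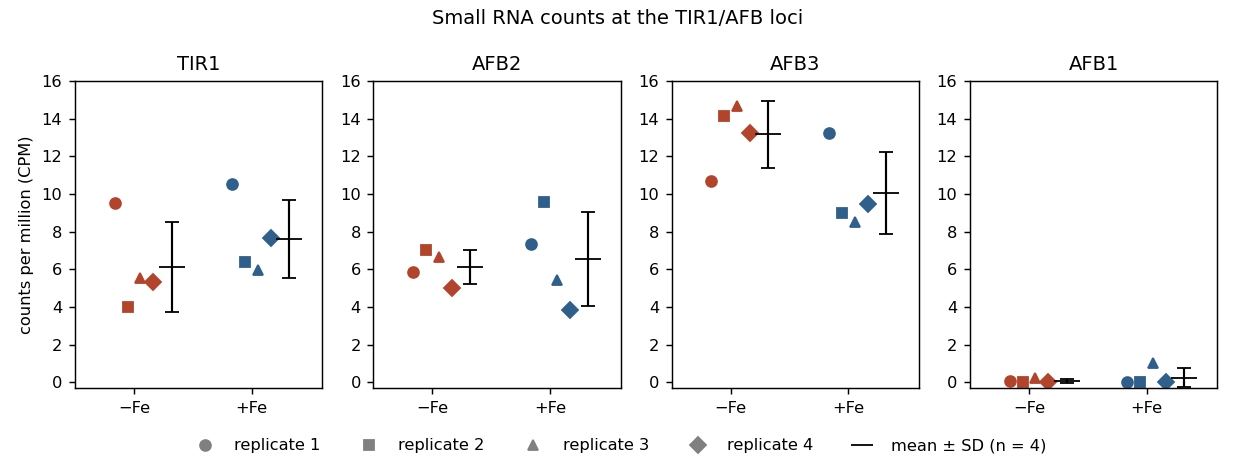
CPM (same linear axis in each panel) at the small RNA loci named TIR1, AFB2, AFB3 and AFB1 in each −Fe and +Fe library, with the mean ± SD of 4 libraries in black. AFB3 stands highest in both groups (means of 13.2 in −Fe and 10.0 CPM in +Fe), and AFB1 lies at or under 1.04 CPM in all libraries.

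The more distant receptors AFB4 and AFB5 had no locus of their own name. A locus at AFB4 held 209 counts, and those at AFB5 held 158 and 26. AT3G23690, which codes for a bHLH transcription factor and is also a target of miR393, had 3 loci with 50, 152 and 894 counts. The largest of these had 63, 170, 72 and 23 counts in −Fe, against 124, 196, 136 and 110 counts in +Fe replicates 1 to 4. Its edgeR log2 fold change was -0.73 ± 0.44 (SE), with an adjusted p of 0.785. LCR, the target of miR394, had 1 locus with 41 counts, namely 11, 16, 2 and 0 in −Fe, against 9, 1, 2 and 0 in +Fe replicates 1 to 4. Its edgeR adjusted p was 0.998, and 1 −Fe and 1 +Fe library had no count there.

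Of 9 other precursors of the auxin response pathway, from the MIR160 and MIR167 families, which act on auxin response factors, and MIR390, which starts the production of tasiRNAs against such factors, none had an unadjusted p under 0.05 by edgeR, against 6.01% of all precursors tested. Their median log2 fold change was -0.020, with 4 positive and 5 negative, beside 0.064 over all precursors tested. MIR167a, with 29300 counts, was the highest and had 306 ± 62.3 CPM in −Fe and 307 ± 56.9 CPM in +Fe (SD, n = 4 each). MIR160c came nearest to the threshold, with 11.2 ± 3.14 CPM in −Fe and 20.3 ± 8.67 CPM in +Fe (SD, n = 4 each; edgeR adjusted p = 0.672). MIR167d held 12339 counts, MIR390b 2510, MIR167b 2114, MIR390a 790, MIR160b 95, MIR160a 26 and MIR167c 20. MIR393b thus stood below MIR167a and MIR167d and above the other 7 in summed counts.

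Of the 5 other precursors whose miRNAs act on F-box mRNAs, only MIR2111b had more than 8 counts. MIR2111a, MIR774a and MIR774b had 0 counts in every library, MIR859 had 8 counts, all in −Fe replicate 1, and MIR2111b had 171. MIR2111b had 37, 4, 0 and 0 counts in −Fe, against 28, 19, 0 and 83 counts in +Fe replicates 1 to 4, and was the only one of these 5 with enough counts for the test (edgeR adjusted p = 0.998). MIR393, with 9441 counts, therefore held most of the precursor counts of F-box-targeting miRNAs among the precursors considered here. MIR394 held 887, and MIR394b alone, with 210, stood near MIR2111b. In +Fe replicate 4 MIR2111b had more counts (83) than the MIR394 family (23).

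The precursors whose levels across the 8 libraries were most like those of MIR393 were MIR404, MIR319c and MIR159c, with Pearson correlations of 0.891, 0.885 and 0.842 to the family sum on log2(CPM + 1), among 102 other precursors with at least 10 counts in each library. MIR319c and MIR159c give related miRNAs, of which miR319 acts on TCP and miR159 on MYB transcription factor mRNAs. MIR394 was most like MIR171b (0.770), MIR405b (0.744) and MIR5026 (0.643). MIR171b gives a miRNA against GRAS transcription factors of the SCL group. These correlations describe 8 libraries that share their depth and composition between precursors, and they were not tested. The 3 precursors most like MIR394 were picked across these same libraries. A direction shared with MIR394 follows in part from that choice and is no separate evidence. As with MIR394a, the −Fe mean was the higher one for MIR171b (9.85 in −Fe and 6.46 CPM in +Fe) and MIR405b (8.83 in −Fe and 5.07 CPM in +Fe), with edgeR adjusted p of 0.851 and 0.879. The same held for MIR5026 (83.1 in −Fe and 60.4 CPM in +Fe), which alone of the 3 had an unadjusted p under 0.05, with an edgeR adjusted p of 0.645.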

How the data were processed

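Small RNA libraries of phloem exudate (4 −Fe and 4 +Fe biological replicates) were grouped by their treatment labels. Reads were trimmed by the authors with Cutadapt, and then mapped and counted with ShortStack (build TAIR10 per the labels, versions not given in the sources used here). The authors deposited raw counts per locus and library, with a column of their sum that was not tested. Columns of libraries outside the series numbered 0. How ShortStack placed reads that match several precursors is not given in the sources used here.

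From the counts, CPM were computed with library totals. Loci with at least 10 counts entered an edgeR fit (R 4.3.3, edgeR 4.0.16, limma 3.58.1) after TMM normalization, with condition as the only term of its quasi-likelihood model. Standard errors and intervals come from the fitted information matrix and the posterior quasi-dispersion, and are approximate. DESeq2 (version 1.42.0), other scalings and filters, a fit of precursors alone, a replicate block, a threshold of 0.05 and each library left out were alternatives. Single values were compared by exact two-sided permutation tests over 70 divisions. Where libraries were paired by number, exact sign-flip tests were used in their place. Scripts were tested on simulated data. Gene names and target gene positions came from the TAIR10.1 gene table, and a locus was assigned to a gene it overlapped by at least 1 nt.

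The members and lists were chosen with earlier results of these data known. Named are the 4 members, the genes of the target list, auxin pathway and F-box-targeting precursors, the 3 rank neighbours on each side of MIR393b and MIR394a, and the 3 precursors most like each family. The target list with 1 locus per gene, and the lists without +Fe replicates 2 and 4 were added after seeing the data.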

Additional observations from a re-analysis of the deposited data

Results flagged for a closer look

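In 3 of 28 groups of 4 libraries that were checked, 1 library lay far from the other 3. The rule would flag about 1 in 20 groups of independent, normally distributed values. Some groups here share counts or hold zeros, so 3 of 28 cannot be set against that rate. MIR394a had 13.98 CPM in −Fe replicate 1, against at most 6.94 CPM in the other −Fe libraries. The MIR394 family had 19.7 CPM in −Fe replicate 1, where the next −Fe library had 8.77 CPM, and this is the same library and mostly the same counts. The small RNA locus named AFB1 had 1.04 CPM in +Fe replicate 3 and none in the other +Fe libraries. An unnamed locus that overlaps it had 14 counts in +Fe replicate 3 and 4 in +Fe replicate 1.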

How the results depend on the processing

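None of the 4 precursors passed the threshold under any alternative, with adjusted p between 0.556 (MIR394a without +Fe replicate 1, where its unadjusted p was under 0.05) and 1.00. MIR394a and MIR394b kept a positive log2 fold change throughout (0.11 to 1.21 and 0.69 to 1.86). The sign of MIR393a was not stable, since it was 0.11 without +Fe replicates 2 and 4, and ranged from -0.23 to 0.12 with each library left out, positive without −Fe replicate 2, −Fe replicate 3, +Fe replicate 1 or +Fe replicate 4. For MIR393b it was -0.079 with library totals, and -0.10 to 0.32 with each library left out, negative without −Fe replicate 1 or +Fe replicate 2. The MIR393 family difference was 7.68 CPM with TMM-scaled libraries and 328 counts per 1e+06 precursor counts, and -22.7 to 5.53 CPM with each library left out, positive without +Fe replicate 4. The share of the 4 precursors in precursor counts differed by -0.0214 percentage points without +Fe replicates 2 and 4, and by -0.0159 to 0.127 with each library left out, negative without −Fe replicate 1 or +Fe replicate 2. Calls over all loci numbered 3 with the replicate block, 5 without +Fe replicates 2 and 4, 34 with DESeq2, and 0 to 1 with each library left out, and no member was among them. Deviations of same-numbered libraries correlated between -0.00185 and 0.0492, and those of differently numbered ones between -0.047 and 0.0381. Such low values over all tested loci cannot decide whether the numbers pair the samples. With the block the log2 fold changes were -0.070 for MIR393a, 0.13 for MIR393b, 0.88 for MIR394a and 1.69 for MIR394b. The median over all loci was then 0.29. With libraries paired by number, exact sign-flip tests gave p = 0.125 for the MIR393b share and for the log2 ratio of MIR393 to MIR394. All same-numbered pairs went the same way for both, and p cannot be smaller with 4 pairs. The other measures gave p of 0.25 to 0.625 by the sign-flip test. Counts of MIR394, 23 to 209 per library, limit what could be resolved.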
